A study of Mus musculus with 7 samples.

Results

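The genes described here carry secretory and membrane proteins into the endoplasmic reticulum (ER) and on to the Golgi. They were chosen by gene symbol alone: the signal recognition particle and its receptor, the Sec61 channel and its partners, the translocon-associated protein (TRAP) and signal peptidase complexes, the COPII and COPI vesicle coats, the Tmed (p24) cargo receptors, the KDEL receptors, the TRAPP tethers and every other gene whose symbol starts with Sec and a digit. Of 16565 genes named on the array, 71 met this rule, and 114 probe IDs read them. Many probe IDs of a gene repeat a single value, so each distinct row of values was taken as 1 feature, which gave 76 member features. Their tissue was the palatal shelf, the paired outgrowth that fuses into the roof of the mouth, in mouse embryos at E13.75. The 4 Adamts9+/-;bt/bt embryos lack 1 copy of Adamts9 and carry the belted (bt) allele on both copies of Adamts20, while the 3 wild-type embryos were age-matched C57Bl/6. Both genes encode metalloproteases that cut versican, a proteoglycan of the embryonic matrix, and both enzymes leave the cell by the secretory pathway. No treatment was given, all labels name the C57BL/6 strain, and each Illumina expression array holds 1 embryo, called mutant replicates 1 to 4 and wild-type replicates 1 to 3 below.

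In the secretory pathway, the signal recognition particle halts a ribosome whose nascent chain shows a signal peptide and docks it at the ER membrane, where the chain enters the Sec61 channel. Signal peptidase removes the peptide, and folded cargo leaves in COPII-coated vesicles, whose inner layer is built of SEC23 and SEC24 and is recruited by the GTPase SAR1. COPI-coated vesicles return escaped ER proteins and cargo receptors from the Golgi, and TRAPP complexes tether incoming vesicles. Cells that lay down much matrix, such as craniofacial mesenchyme and chondrocytes, depend on this route, and loss of SEC23A function in humans causes cranio-lenticulo-sutural dysplasia, a disorder of skull closure. Secretory genes are known targets of XBP1 and ATF6, transcription factors of the unfolded protein response.

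The XBP1 and ATF6 element known as the UPRE, with the letters TGACGTGG, was searched on both strands of the 300-base promoters that RefSeq gives on GRCm38.p6, which run from 250 bases before to 50 bases after each start site. Promoters were matched for 57 of the 71 genes. The element was present in 6 of the 57 genes (10.5%), against 193 of all 27025 genes with a promoter (0.714%) and 87 of 8122 genes detected on these arrays (1.07%). The 57 genes include members under the detection limit, among them Copb1, while the 8122 hold detected genes only. A gene with several start sites counted once if any of its promoters held the letters. The stretch of up to 100 bases around the element is printed below for these 6 genes, since they include members that rose, fell, did not pass and were too dim to test. Each runs in the direction of transcription, with the UPRE or its reverse complement CCACGTCA in capitals.
Sec23a (chr12:59011988-59012057, minus strand): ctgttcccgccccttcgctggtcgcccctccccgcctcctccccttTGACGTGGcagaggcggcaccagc
Kdelr3 (chr15:79516332-79516431, plus strand): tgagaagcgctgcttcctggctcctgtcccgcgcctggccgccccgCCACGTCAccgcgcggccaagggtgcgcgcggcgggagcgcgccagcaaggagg
Sec16b (chr1:157506706-157506805, plus strand): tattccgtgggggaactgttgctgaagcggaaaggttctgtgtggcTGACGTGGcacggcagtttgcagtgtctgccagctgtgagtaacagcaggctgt
Copb2 (chr9:98563678-98563760, plus strand): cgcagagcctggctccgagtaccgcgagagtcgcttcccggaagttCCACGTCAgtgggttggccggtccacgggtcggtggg
Sec24d (chr3:123267424-123267523, plus strand): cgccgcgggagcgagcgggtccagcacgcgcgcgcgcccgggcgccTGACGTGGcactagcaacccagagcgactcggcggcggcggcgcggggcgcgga
Copb1 (chr7:114254655-114254754, minus strand): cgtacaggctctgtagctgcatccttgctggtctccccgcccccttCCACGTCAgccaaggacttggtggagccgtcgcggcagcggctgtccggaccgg
The element began 6 bases after the start site in Sec23a and between 44 and 7 bases before it in the others, at -44 in Sec16b, -30 in Kdelr3, -28 in Copb1, -26 in Sec24d and -7 in Copb2. On the arrays Sec23a and Kdelr3 rose in Adamts9+/-;bt/bt shelves and Sec16b fell, Copb2 and Sec24d did not pass the test, and Copb1 lay under the detection limit. The letters therefore occurred in members of every outcome, and a match is a description of the sequence, not a binding site. The other elements searched were rarer among the members. The cyclic AMP response element TGACGTCA was present in 1 of 57 genes (1.75%, Cope) against 2.03% of all genes. ERSE, which is CCAAT and CCACG spaced by 9 bases, was present in 0 of 57 genes against 0.137%, and ERSE-II, which is ATTGG and CCACG spaced by 1 base, in 0 of 57 against 0.0444%. Both share the letters CCACG with the reverse complement of the UPRE.

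Each level below is a background-corrected, quantile-normalized log2 intensity, and each difference is the mean of the Adamts9+/-;bt/bt arrays minus that of the wild-type arrays, in log2 units, with its SE from limma. A feature counted as detected if its mean over the 7 arrays lay above the 40th percentile of all features, a limit of 6.10, which 10869 features passed. A call means an adjusted p under 0.05 by limma with Benjamini-Hochberg adjustment over all of these. Single members also have an exact two-sided permutation test, whose smallest p over the 35 splits of 7 arrays into 4 and 3 is 0.0286. The upper quartile of raw intensity was 172 to 200.2 in Adamts9+/-;bt/bt arrays and 209 to 248 in wild-type arrays. Correlations across detected features were 0.993 to 0.994 among Adamts9+/-;bt/bt arrays, 0.982 to 0.993 among wild-type arrays and 0.948 to 0.977 between the groups. On a leading component that held 74.4% of the variance, the Adamts9+/-;bt/bt arrays lay between -20.3 and -14.9, wild-type replicates 1 and 2 at 24.4 and 30.8, and wild-type replicate 3 apart from both at 13.03. Results were therefore also computed with wild-type replicate 3 as the sole control, and those that move most are given both ways. That fit takes its spread from the Adamts9+/-;bt/bt arrays only, so its p-values hold no spread between wild-type embryos.

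The labelled tissue was checked by its markers. Of 15 palatal mesenchyme markers 14 were detected, among them Osr2, Msx1 and Barx1 at 10.3 or more on average in both groups, and Mn1 was under the limit. Close to the limit lay Pax9 (means of 6.20 in Adamts9+/-;bt/bt and 6.18 in wild-type shelves), Tbx22 (6.22 and 6.10) and Dlx5 (6.15 and 6.34). Over all detected features 16.9% were called higher and 19.8% lower, against 28.6% lower in the erythroid and 16.7% higher in the leukocyte list below. Of the 14 palatal markers, 0 were called higher and 6 lower. The summed intensity of the list was 8017 to 9904 in Adamts9+/-;bt/bt arrays against 13334 to 15831 in wild-type arrays. Of 22 detected neuron markers 18 were higher and 0 lower, with a median difference of 1.64, and their summed intensity was 15952 to 22380 against 2994 to 5969. Nefl and Snap25 were under the limit, and Tubb3 (0.10) and Ncam1 (0.05) did not pass. Of 10 detected endothelial markers 0 were higher and 5 lower, with a summed intensity of 3080 to 3640 against 3611 to 4319. Erythroid markers summed to 42174 to 45825 against 46874 to 48883, with 0 of 7 higher and 2 lower, and the mean log2 level of 6 leukocyte markers was 7.46 to 7.59 against 7.38 to 7.42, with 1 higher and 0 lower. The summed leukocyte intensity overlapped, at 1881 to 2082 against 1671 to 1898, as did the endothelial sums. Skeletal muscle markers overlapped between the groups, at 10768 to 17658 against 3838 to 12214, with wild-type replicate 2 lowest at 3838. Overlap was also found in the sums of oral epithelium (6019 to 9165 against 6545 to 8573) and cartilage markers (1918 to 3863 against 2768 to 7130). The same held for osteoblast (4664 to 5360 against 4402 to 5527) and glia and neural crest markers (570 to 664 against 527 to 576). The palatal mesenchyme, neuron and erythroid sums did not overlap between the genotypes, and those of the other lists did. This depended on the measure. By mean log2 level the endothelial list was separate, at 7.71 to 7.89 against 8.09 to 8.30. The erythroid list overlapped by that measure, at 9.92 to 10.10 against 10.05 to 10.42. The part of any of these lists in the results below was not tested. In bulk tissue, fewer cells of a type and less RNA per cell cannot be told apart.

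Secretory genes differed between the genotypes in both directions, and their median difference was near 0 after quantile normalization. Of the 71 genes 60 were detected, and 16 of these rose, 15 fell and 29 did not pass. By feature, 64 of 76 were detected, of which 17 were higher, 15 lower and 32 not called. So 32 of 64 member features were called, where 36.8% of all detected features were called, 16.9% higher and 19.8% lower. The detected members were brighter, at a median level of 8.64 against 7.34 over all detected features. The part of brightness in the share called was not tested. With the replicate number as a block, 10 members were higher and 8 lower, against 1265 and 1596 of the 10869 features. Values of the groups did not overlap in 34 of 64 member features, where 42.6% of all features did not overlap. A call with a difference of at least 0.5 was found for 6 higher and 5 lower members, 17.2% of the 64, against 12.6% of all features. The median difference was 0.02 over the members and -0.00 over all features.

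The balance of directions depended on the scaling. With each array centred on its median instead of quantile-normalized, the median over all features moved by -0.14. On that scale 6 members were higher and 24 lower, against backgrounds of 6.97% higher and 35.7% lower. Of the 32 calls 11 were lost there, all of them rises: Srp14, Ssr4, Sec11c, Spcs1, Kdelr3, the dimmer Copg1 feature, Trappc1, Trappc2l, Trappc3, Trappc4 and Trappc13. The authors' deposited log2 table gave 17 higher and 15 lower members, with 0 calls lost and 0 gained. Leaving out 1 array gave 10 to 16 higher and 9 to 17 lower members, with the fewest rises without wild-type replicate 1 (10 higher, 10 lower) and the fewest falls without wild-type replicate 2 (11 higher, 9 lower). With wild-type replicate 3 as the sole control most calls were lost, and the counts for members and for all features are given together in the last section. Kdelr2, Sar1a, Sec16a, Sec23a, Sec24c, Sec61a1, Srp54a and Trappc2 were called in each of the settings that tested them, 8 features in all. The same count was not made over all features, so this number has no background. Trappc2 was too dim for the stricter detection filter at the 60th percentile. These settings include the fit with wild-type replicate 3 as the sole control, which cannot measure the spread between wild-type embryos.

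**Figure D1:**
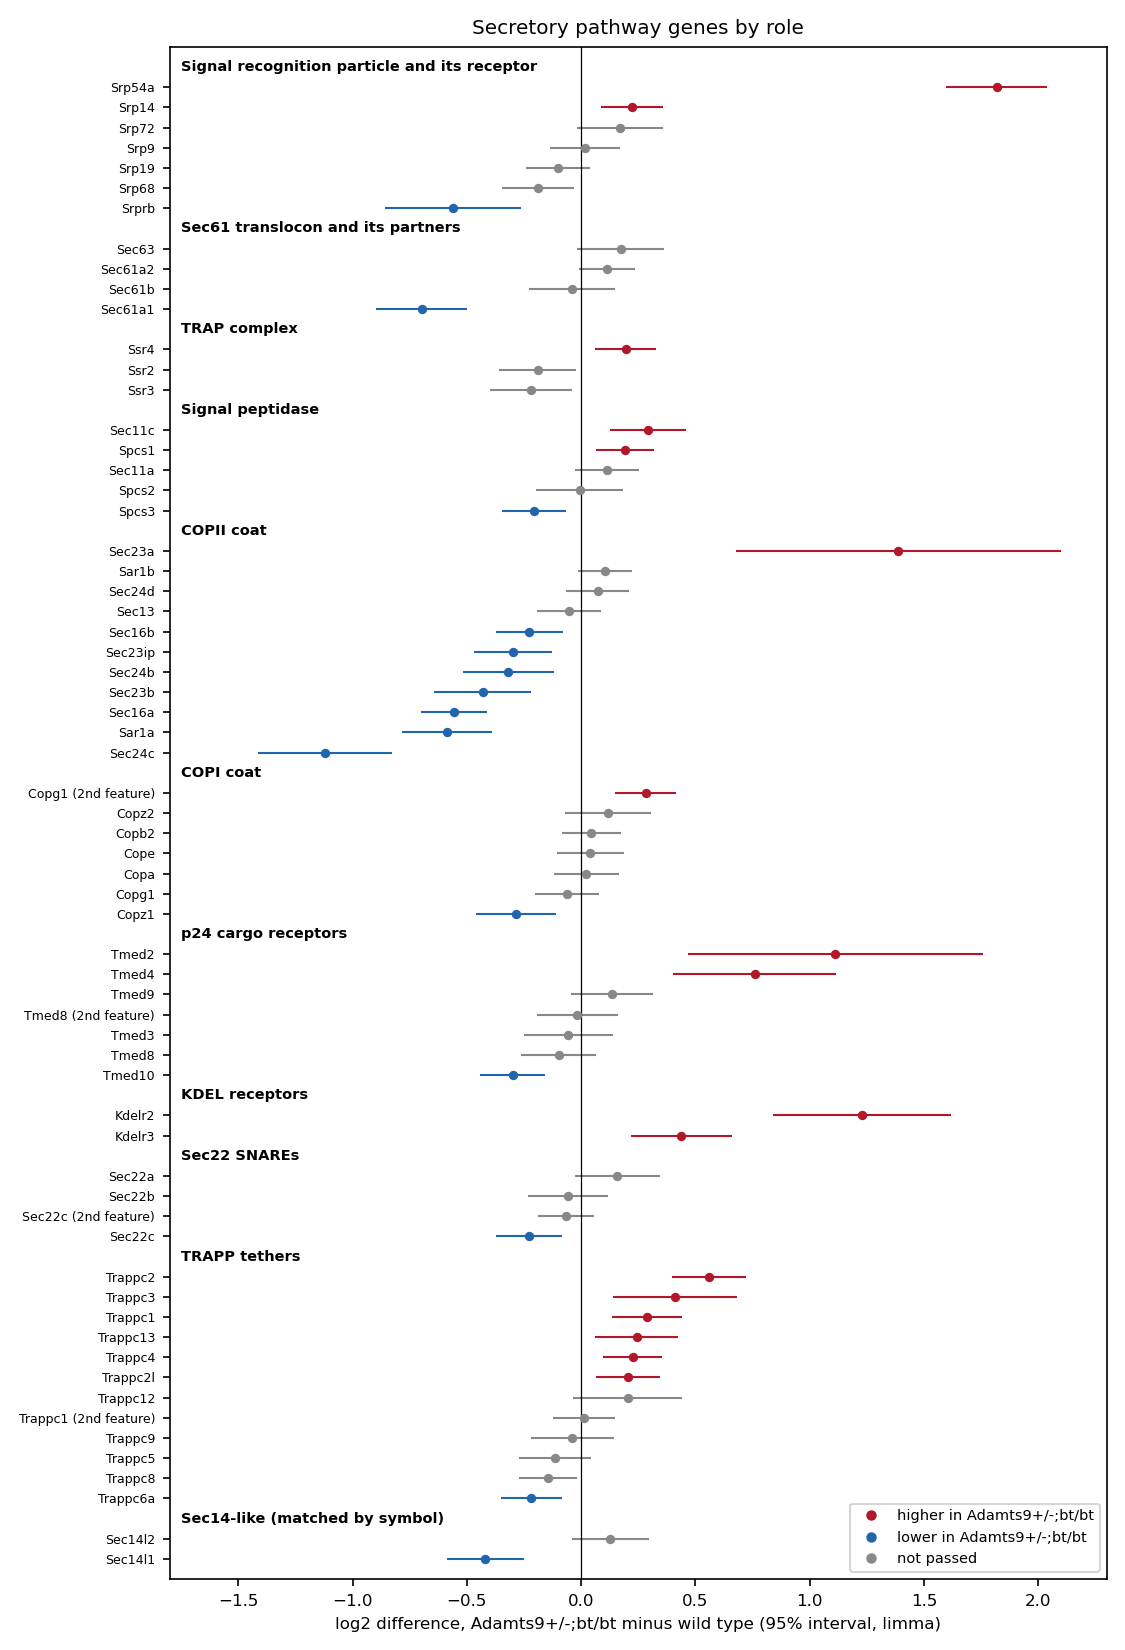
Log2 difference, Adamts9+/-;bt/bt minus wild type, of each detected member feature by role, with limma's 95% interval (4 and 3 arrays). Points are coloured by call at an adjusted p of 0.05: 17 lie to the right and 15 to the left, and the COPII coat is mostly on the left with Sec23a alone far to the right.

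Targeting to the ER was represented by 7 detected genes, of which 2 rose, 1 fell and 4 did not pass. Over all features 16.9% were higher and 19.8% lower. That is the background for this and each role and list below, and none was tested against it. Srp54a, the GTPase subunit of the signal recognition particle that binds the signal peptide, showed the largest rise of all members. It read 8.06, 7.84, 8.06 and 7.98 in Adamts9+/-;bt/bt shelves, against 6.07, 6.04 and 6.39 in wild-type shelves. Every Adamts9+/-;bt/bt value lay well above every wild-type value, and wild-type replicates 1 and 2 were under the detection limit, so the size depends on the floor. The difference was 1.82 (SE 0.10, 3.52-fold, adjusted p = 3.65e-05, exact permutation p = 0.0286), and 1.59 against wild-type replicate 3 alone. In the mouse Srp54a has close copies, Srp54b and Srp54c, and whether the probe reads only Srp54a was not tested.

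Srprb, the membrane-anchored beta subunit of the receptor that docks the particle at the ER, moved the other way. Its values were 7.57, 7.56, 7.30 and 7.62 in Adamts9+/-;bt/bt shelves and 8.37, 8.03 and 7.81 in wild-type shelves. The groups did not overlap, with wild-type replicate 3 the nearest to the mutants. The fall was -0.56 (SE 0.13, 1.47-fold lower, adjusted p = 0.00992, exact permutation p = 0.0286), and against wild-type replicate 3 alone it was -0.30 with an adjusted p of 0.163 by limma. Srpr, the alpha subunit of the same receptor under its older symbol, which the rule does not match, read 8.31, 8.35, 8.36 and 8.36 in Adamts9+/-;bt/bt shelves against 8.97, 9.03 and 8.73 in wild-type shelves (difference -0.57, SE 0.08, adjusted p = 0.000657). Both receptor subunits were thus lower in all 4 Adamts9+/-;bt/bt arrays than in any wild-type array.

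The remaining particle subunits differed little. Srp14, which with Srp9 forms the Alu domain that slows elongation, read 10.35, 10.31, 10.42 and 10.48 in Adamts9+/-;bt/bt shelves against 10.17, 10.18 and 10.15 in wild-type shelves. It rose by 0.22 (SE 0.06, adjusted p = 0.0177), but did not pass once wild-type replicate 1 was left out (0.23, adjusted p = 0.0537), and median centring turned the difference to -0.01. Its partner Srp9 differed by 0.02 (95% interval -0.14 to 0.17, adjusted p = 0.87). Srp72 (0.17), Srp19 (-0.10) and Srp68 (-0.19, adjusted p = 0.061), subunits of the same particle's core, did not pass.

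At the Sec61 channel 1 of 4 detected genes fell and 3 did not pass, where 19.8% of all features were lower. Sec61a1 encodes the main pore-forming subunit through which nascent chains cross the membrane. It read 8.65, 8.63, 8.55 and 8.59 in Adamts9+/-;bt/bt shelves, against 9.51, 9.26 and 9.13 in wild-type shelves. The groups did not overlap, and the 4 Adamts9+/-;bt/bt values lay close together. The difference was -0.70 (SE 0.09, 1.62-fold lower, adjusted p = 0.00047, exact permutation p = 0.0286), and -0.52 against wild-type replicate 3 alone. Its paralog Sec61a2 read 8.82, 8.85, 8.86 and 8.85 in Adamts9+/-;bt/bt shelves and 8.67, 8.79 and 8.73 in wild-type shelves. That difference of 0.11 (95% interval -0.01 to 0.23, adjusted p = 0.131) did not pass, although the groups did not overlap. Sec61b, the small beta subunit, differed by -0.04 (adjusted p = 0.742) and Sec63, a J-domain partner that recruits the chaperone BiP, by 0.17 (adjusted p = 0.139). Sec62, another partner of the channel, lay under the limit at 5.89 to 5.95 in Adamts9+/-;bt/bt shelves and 5.90 to 6.02 in wild-type shelves.

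The TRAP complex, which assists the channel with some signal peptides, had 1 of 3 detected genes higher and 2 not called. Over all features 16.9% were higher. Ssr4, its delta subunit, read 10.91, 10.98, 11.05 and 11.06 in Adamts9+/-;bt/bt shelves against 10.82, 10.83 and 10.77 in wild-type shelves. It rose by 0.19 (SE 0.06, adjusted p = 0.0291, exact permutation p = 0.0571). That call was lost in 6 of the 7 fits that leave out 1 array, every one except that without mutant replicate 1, with adjusted p from 0.0518 to 0.0748 by limma, and median centring gave -0.07. Ssr3 (-0.22, adjusted p = 0.0559) and Ssr2 (-0.19, adjusted p = 0.0745) had lower means in Adamts9+/-;bt/bt shelves and did not pass. Ssr1 lay under the limit.

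Signal peptidase had 2 of 5 genes higher, 1 lower and 2 not called, all by less than 0.3. Over all features 16.9% were higher and 19.8% lower. Sec11c, a catalytic subunit, read 7.41, 7.26, 7.51 and 7.48 in Adamts9+/-;bt/bt shelves against 7.05, 7.18 and 7.14 in wild-type shelves. It rose by 0.29 (SE 0.07, adjusted p = 0.014, exact permutation p = 0.0571), but did not pass once wild-type replicate 1 was left out (0.26, adjusted p = 0.0607) or with median centring (0.09, adjusted p = 0.381). The alternative catalytic subunit Sec11a differed by 0.11 (95% interval -0.03 to 0.25, adjusted p = 0.186). Of the accessory subunits, Spcs1 was higher by 0.19 (adjusted p = 0.0254) and Spcs3 lower by -0.21 (adjusted p = 0.028), and Spcs2 did not pass (-0.01, adjusted p = 0.962). The Spcs1 call was lost in 6 of 7 fits without 1 array (every one except that without mutant replicate 2) and its sign turned with median centring (-0.08), and the Spcs3 call was lost in 5 (every one except those without mutant replicates 1 and 2).

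**Figure D2:**
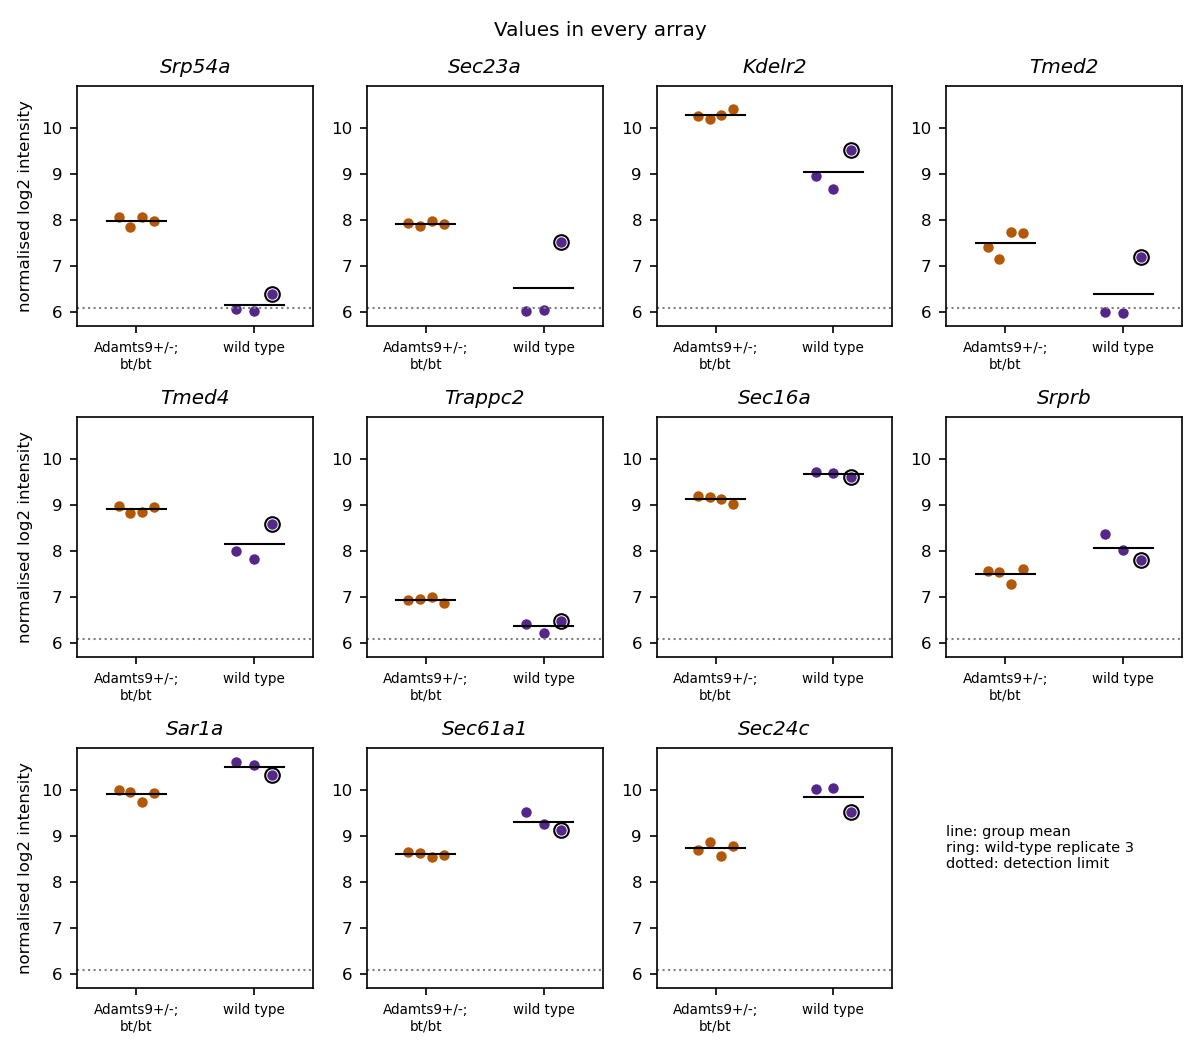
Normalized log2 intensity of the 11 members called with a difference of at least 0.5, in 4 Adamts9+/-;bt/bt and 3 wild-type arrays (points; line, group mean; ring, wild-type replicate 3; dotted line, detection limit of 6.10). The Adamts9+/-;bt/bt arrays spread most in Tmed2 (7.17 to 7.74), where they overlap the wild-type arrays, and wild-type replicate 3 lies nearest to them in all panels shown.

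The COPII coat was the role with the most falls, at 7 of 11 detected genes, with 1 gene higher and 3 not called, where 19.8% of all features were lower and 16.9% higher. Among the falls, Sec16b lay under the detection limit in all 4 Adamts9+/-;bt/bt arrays. The median difference of the 11 was -0.30, against -0.00 over all features. Sec24c, an inner-coat subunit that selects cargo, fell most. It read 8.70, 8.86, 8.57 and 8.78 in Adamts9+/-;bt/bt shelves, against 10.00, 10.03 and 9.51 in wild-type shelves. All 4 Adamts9+/-;bt/bt arrays lay below wild-type replicate 3, the lowest wild-type array. The difference was -1.12 (SE 0.13, 2.17-fold lower, adjusted p = 0.000306, exact permutation p = 0.0286), and -0.79 against wild-type replicate 3 alone.

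Sar1a, a GTPase that starts coat assembly, read 9.99, 9.94, 9.73 and 9.92 in Adamts9+/-;bt/bt shelves and 10.59, 10.53 and 10.32 in wild-type shelves, a fall of -0.59 (SE 0.09, 1.5-fold lower, adjusted p = 0.00104). Sec16a, the scaffold of ER exit sites, read 9.19, 9.16, 9.12 and 9.01 in Adamts9+/-;bt/bt shelves and 9.72, 9.70 and 9.61 in wild-type shelves, a fall of -0.56 (SE 0.06, 1.47-fold lower, adjusted p = 0.000296). In both genes the groups were separate, with exact permutation p = 0.0286, and Sec16a had the tightest wild-type arrays of the members with a difference this large. Smaller falls were seen in Sec24b, a cargo-selecting subunit (-0.32, adjusted p = 0.0207), and Sec23ip, which binds SEC23 at exit sites (-0.30, adjusted p = 0.0135). Sec16b, a second exit-site scaffold, was also called lower (-0.23, adjusted p = 0.023). All 4 of its Adamts9+/-;bt/bt values, 6.00 to 6.09, lay under the detection limit of 6.10, against 6.15 to 6.34 in wild-type shelves. It counted as detected only through the wild-type arrays, so its size depends on the floor. These 3 calls were not firm. Sec24b was lost without wild-type replicate 1, wild-type replicate 2 or mutant replicate 4 (adjusted p 0.0532 to 0.074 by limma), Sec23ip without wild-type replicate 1 (-0.24, adjusted p = 0.0572), and Sec16b in 4 of 7 such fits, without wild-type replicates 1 and 2 and mutant replicates 3 and 4 (0.0532 to 0.0918). Against wild-type replicate 3 alone Sec24b was -0.16 (adjusted p = 0.361), Sec16b -0.10 (adjusted p = 0.463) and Sec23ip -0.32 (adjusted p = 0.0548).

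Sec23a, the inner-coat subunit that activates the SAR1 GTPase, moved opposite to the 7 coat genes that fell. It read 7.93, 7.88, 7.97 and 7.92 in Adamts9+/-;bt/bt shelves, against 6.04, 6.06 and 7.51 in wild-type shelves. Wild-type replicates 1 and 2 lay under the detection limit and wild-type replicate 3 lay near the Adamts9+/-;bt/bt arrays, still below each of them. The difference was 1.39 (SE 0.31, 95% interval 0.68 to 2.1, 2.62-fold, adjusted p = 0.00843, exact permutation p = 0.0286). Against wild-type replicate 3 alone it was 0.41, and without wild-type replicate 3 it was 1.88 (adjusted p = 3.38e-07). The size of the Sec23a difference thus rests on which wild-type arrays are used and on the floor. Its paralog Sec23b read 6.90, 6.85, 6.82 and 6.95 in Adamts9+/-;bt/bt shelves and 7.51, 7.33 and 7.10 in wild-type shelves. It fell, with a difference of -0.43 (SE 0.09, adjusted p = 0.00678), and was -0.22 against wild-type replicate 3 alone (adjusted p = 0.145).

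Other COPII paralogs also differed in what the test found. Sec24d differed by 0.07 (95% interval -0.07 to 0.21, adjusted p = 0.395), where Sec24c and Sec24b fell, and Sec24a lay under the limit at 5.76 to 5.91 in Adamts9+/-;bt/bt shelves and 5.74 to 5.76 in wild-type shelves. Sar1b read 9.34, 9.36, 9.34 and 9.43 in Adamts9+/-;bt/bt shelves against 9.27, 9.26 and 9.25 in wild-type shelves. Its groups were separate, but the difference of 0.10 (95% interval -0.01 to 0.22, adjusted p = 0.149) did not pass. Sec13, a component of the outer cage, differed by -0.05 (adjusted p = 0.538). The differences between paralogs were not tested against each other.

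**Figure D3:**
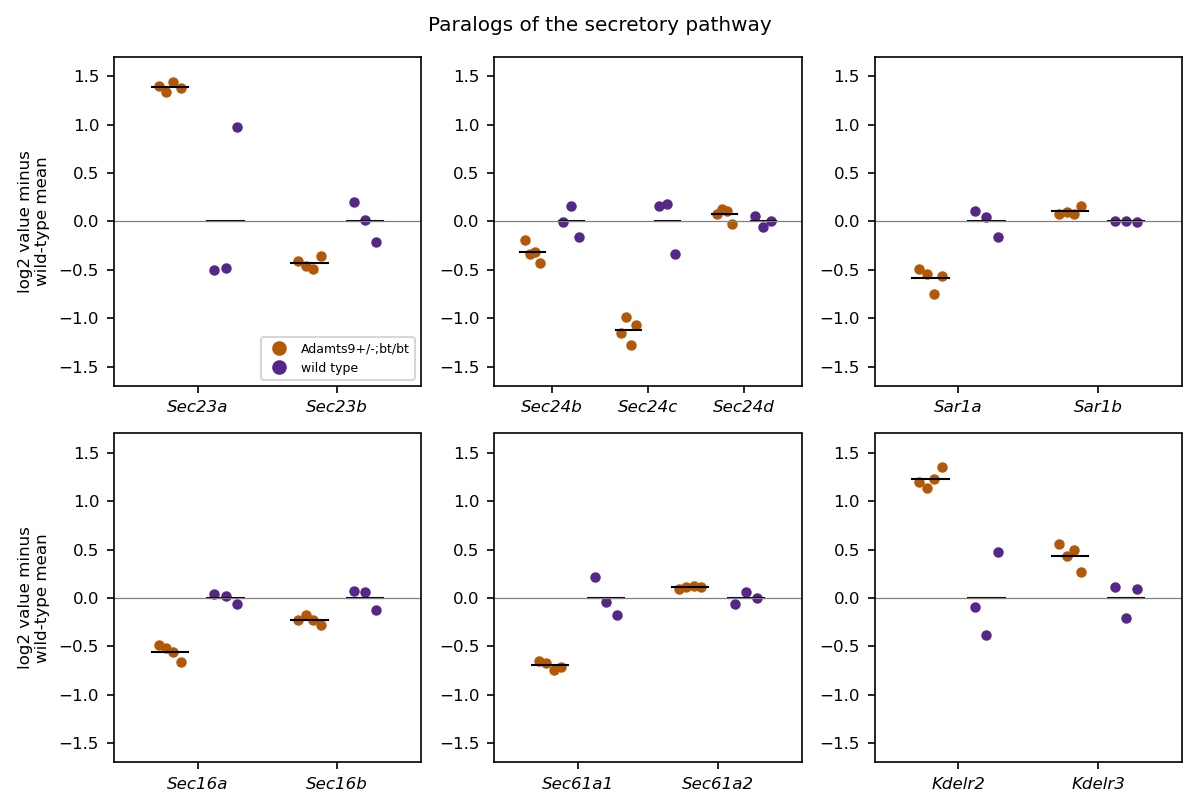
Log2 values minus the wild-type mean of the same gene for paralogs of COPII subunits, the Sec61 alpha subunit and the KDEL receptors (points, 4 Adamts9+/-;bt/bt and 3 wild-type arrays; black line, group mean). Sec23a (1.39) and Sec23b (-0.43) lie on opposite sides of 0, Sec24c (-1.12), Sec24b (-0.32), Sar1a (-0.59) and Sec61a1 (-0.70) lie below it, and both KDEL receptors lie above it.

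The COPI coat had fewer calls than the COPII coat, with 1 of 6 detected genes lower, 0 higher and 5 not called. Copz1, the zeta subunit, read 10.66, 10.65, 10.66 and 10.74 in Adamts9+/-;bt/bt shelves against 11.06, 11.04 and 10.78 in wild-type shelves. It fell, with a difference of -0.28 (SE 0.08, adjusted p = 0.0193), with wild-type replicate 3 close to the Adamts9+/-;bt/bt arrays. It no longer passed when wild-type replicate 1 (-0.23, adjusted p = 0.0804) or replicate 2 (-0.24, adjusted p = 0.0719) was left out, or against wild-type replicate 3 alone (-0.10, adjusted p = 0.47). Its paralog Copz2 differed by 0.12 (95% interval -0.07 to 0.31). Copa (0.02, 95% interval -0.12 to 0.17), Copb2 (0.04, -0.08 to 0.17) and Cope (0.04, -0.11 to 0.19), the alpha, beta-prime and epsilon subunits, did not pass either. Copg1, the gamma subunit, had a pair of features that did not match. The brighter one differed by -0.06 (adjusted p = 0.478), and the other was called higher by 0.28 (SE 0.06, adjusted p = 0.00613), at 8.32, 8.40, 8.49 and 8.36 in Adamts9+/-;bt/bt shelves against 8.09, 8.09 and 8.15 in wild-type shelves, a value that median centring turned to -0.02. Copb1 lay under the limit.

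KDEL receptors return escaped ER chaperones by binding their carboxy-terminal KDEL signal, and both detected members rose. Kdelr2 read 10.24, 10.18, 10.28 and 10.40 in Adamts9+/-;bt/bt shelves, against 8.95, 8.66 and 9.52 in wild-type shelves. All 4 Adamts9+/-;bt/bt arrays were above wild-type replicate 3, the highest of the wild-type arrays. The difference was 1.23 (SE 0.17, 2.34-fold, adjusted p = 0.000759, exact permutation p = 0.0286), and 0.75 against wild-type replicate 3 alone. Kdelr3 read 9.04, 8.92, 8.98 and 8.76 in Adamts9+/-;bt/bt shelves against 8.60, 8.28 and 8.58 in wild-type shelves. It rose by 0.44 (SE 0.10, 1.36-fold, adjusted p = 0.0081), and did not pass by median centring (0.13, adjusted p = 0.424) or against wild-type replicate 3 alone (0.35, adjusted p = 0.0837). Kdelr1 lay under the limit, at 5.94 to 6.02 in Adamts9+/-;bt/bt shelves and 5.91 to 5.97 in wild-type shelves.

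The p24 family (Tmed genes) encodes cargo receptors that cycle between ER and Golgi in both coats. Of 6 detected genes 2 rose, 1 fell and 3 did not pass, where 16.9% of all features were higher and 19.8% lower. Tmed2 read 7.42, 7.17, 7.74 and 7.72 in Adamts9+/-;bt/bt shelves, against 6.02, 5.98 and 7.20 in wild-type shelves. The groups overlapped, since wild-type replicate 3 lay above mutant replicate 2, and wild-type replicates 1 and 2 were under the limit. The difference was 1.11 (SE 0.28, 2.16-fold, adjusted p = 0.015, exact permutation p = 0.0571). It no longer passed when wild-type replicate 1 (0.92, adjusted p = 0.0636) or replicate 2 (0.90, adjusted p = 0.0552) was left out, or against wild-type replicate 3 alone (0.31, adjusted p = 0.362).

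Tmed4 read 8.98, 8.83, 8.85 and 8.95 in Adamts9+/-;bt/bt shelves, against 8.0, 7.83 and 8.59 in wild-type shelves. Its groups were separate, again with wild-type replicate 3 nearest to the Adamts9+/-;bt/bt arrays. It rose by 0.76 (SE 0.16, 1.69-fold, adjusted p = 0.00555, exact permutation p = 0.0286), and against wild-type replicate 3 alone the difference was 0.31 (adjusted p = 0.065). Tmed10, a core p24 protein that pairs with TMED2, read 9.85, 9.95, 9.79 and 9.82 in Adamts9+/-;bt/bt shelves against 10.10, 10.24 and 10.13 in wild-type shelves, a fall of -0.30 (SE 0.06, adjusted p = 0.00573) that did not pass against wild-type replicate 3 alone (-0.27, adjusted p = 0.0836). Tmed9 (0.14), Tmed3 (-0.06) and both features of Tmed8 (-0.10 and -0.02) did not pass, and Tmed5, Tmed6 and Tmed11 lay under the limit.

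TRAPP tethers, which capture vesicles and activate the Rab GTPases of the early Golgi and of autophagy, had 6 of 11 detected genes higher, 1 lower and 4 not called, with a median difference of 0.20, where 16.9% of all features were higher. Of the 6 rises only that of Trappc2 passed with median centring (0.48, adjusted p = 0.00148). Trappc2, a core subunit whose loss causes spondyloepiphyseal dysplasia tarda in humans, read 6.94, 6.95, 7.0 and 6.88 in Adamts9+/-;bt/bt shelves, against 6.42, 6.24 and 6.48 in wild-type shelves. The groups were separate. It rose by 0.56 (SE 0.07, 1.47-fold, adjusted p = 0.000472, exact permutation p = 0.0286). The core subunits Trappc3 (0.41, adjusted p = 0.0264), Trappc1 (0.29, adjusted p = 0.0102, second feature 0.01 with adjusted p = 0.881) and Trappc4 (0.23, adjusted p = 0.0141) were called higher, as were Trappc2l (0.20, adjusted p = 0.0295) and Trappc13 (0.24, adjusted p = 0.0416). Trappc6a was called lower (-0.22, adjusted p = 0.0181).

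Most of these small TRAPP calls were not firm. Those of Trappc3, Trappc13 and Trappc2l were each lost in 5 of the 7 fits without 1 array, with adjusted p from 0.0538 to 0.102, from 0.0561 to 0.14 and from 0.0539 to 0.0976 by limma. Trappc3 and Trappc13 kept their calls without mutant replicate 2 and without wild-type replicate 3, and Trappc2l without mutant replicate 1 and without wild-type replicate 1. In Trappc3 the groups overlapped, at 8.96 to 9.21 in Adamts9+/-;bt/bt shelves and 8.49 to 8.98 in wild-type shelves, and the difference against wild-type replicate 3 alone was 0.09. Trappc6a did not pass once wild-type replicate 2 was left out (-0.18, adjusted p = 0.0719). By median centring Trappc3 (0.10, adjusted p = 0.495), the called Trappc1 feature (0.05, adjusted p = 0.728) and Trappc13 (0.05, adjusted p = 0.718) no longer passed, and the signs of Trappc2l (-0.08) and Trappc4 (-0.03) turned, as did that of the second Trappc1 feature (-0.23, adjusted p = 0.0412). Trappc12 (0.20), Trappc8 (-0.14), Trappc5 (-0.11) and Trappc9 (-0.04) did not pass, and Trappc11 lay under the limit.

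The Sec22 family holds SNARE proteins of ER-Golgi transport. Sec22b, its well-studied member, differed by -0.06 (95% interval -0.23 to 0.12, adjusted p = 0.611) and Sec22a by 0.16 (adjusted p = 0.161). Sec22c read 6.46, 6.41, 6.33 and 6.44 in Adamts9+/-;bt/bt shelves against 6.55, 6.72 and 6.64 in wild-type shelves. This feature was called lower (-0.23, adjusted p = 0.0221), a call lost without wild-type replicate 2 and without mutant replicate 3, and a second feature differed by -0.07 (adjusted p = 0.378). The symbol rule also took in 4 Sec14-like genes, which encode lipid-binding proteins rather than coat or translocation factors. Sec14l1 fell (difference -0.42, SE 0.07, adjusted p = 0.0027, and 0.0617 against wild-type replicate 3 alone), at 7.10, 7.02, 6.92 and 7.17 in Adamts9+/-;bt/bt shelves against 7.57, 7.43 and 7.41 in wild-type shelves, Sec14l2 did not pass (0.13), and Sec14l3 and Sec14l4 lay under the limit. Without them 16 of 58 detected genes were higher and 14 lower.

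Wild-type replicate 3 lay nearer to the Adamts9+/-;bt/bt mean than to the mean of wild-type replicates 1 and 2 in 9 of 32 called member features (28.1%), against 715 of 3995 called features in all (17.9%). In Sec23a, Srp54a and Tmed2, wild-type replicates 1 and 2 lay at or under the detection limit while every Adamts9+/-;bt/bt array was at least 1 log2 unit above it. This pattern, defined after the values were seen, occurred in 3 of 64 member features (4.69%) and in 16 of 10869 features in all (0.147%). Wild-type replicate 3 was nearest of the wild-type arrays to the Adamts9+/-;bt/bt arrays in the summed palatal mesenchyme (13334, against 14618 and 15831 in wild-type replicates 1 and 2), endothelial (3611, against 4137 and 4319) and leukocyte markers (1898, against 1709 and 1671). It was not nearest in the neuron markers (5504, against 5969 and 2994). It was furthest from them in the erythroid (48883, against 48319 and 46874), cartilage (7130, against 4516 and 2768) and glia and neural crest markers (527, against 576 and 552). The part of these lists in its position was not tested.

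**Figure D4:**
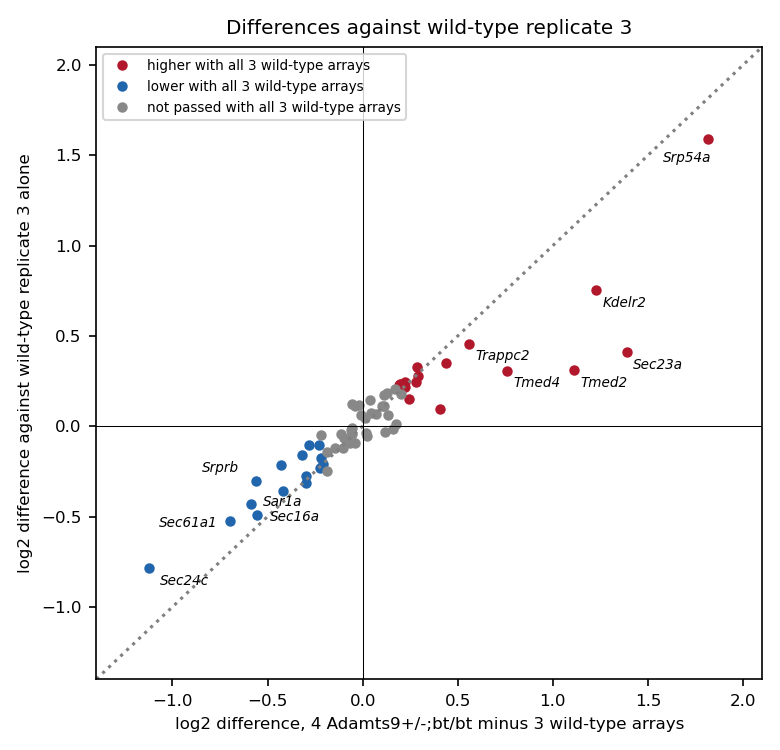
Log2 difference of each detected member feature with all 3 wild-type arrays (horizontal) and with wild-type replicate 3 as the sole control (vertical); the dotted line marks equal values. The axes share the Adamts9+/-;bt/bt arrays and wild-type replicate 3, so a diagonal is built in; Sec23a (1.39 and 0.41), Tmed2 (1.11 and 0.31) and Kdelr2 (1.23 and 0.75) lie furthest below it.

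Neighbouring parts of the pathway were read from 8 lists with 124 detected genes, of which 34 were higher, 34 lower and 56 not called, with a median of 0.02. Over all features 16.9% were higher and 19.8% lower, and with median centring the lists had 9 higher and 56 lower. Among 13 ER stress sensors and secretory transcription factors 4 rose, 2 fell and 7 did not pass. Xbp1, the factor whose element is printed above, read 11.23, 11.16, 11.20 and 11.23 in Adamts9+/-;bt/bt shelves against 10.69, 10.86 and 10.73 in wild-type shelves (difference 0.45, SE 0.06, adjusted p = 0.000625). Mbtps1, the site-1 protease that releases ATF6 and CREB3-type factors from the Golgi membrane, moved the other way. It read 7.76, 8.01, 7.58 and 7.97 in Adamts9+/-;bt/bt shelves against 9.32, 9.26 and 9.10 in wild-type shelves, a fall of -1.39 (SE 0.11, adjusted p = 8.31e-05). Atf4 (0.50, SE 0.12, adjusted p = 0.0136) and the ER stress kinase gene Eif2ak3 (0.31, SE 0.06, adjusted p = 0.00403) rose, and the phosphatase regulator Ppp1r15a fell (-0.53, SE 0.08, adjusted p = 0.0014). Atf4 did not pass once wild-type replicate 1 was left out (0.45, adjusted p = 0.0556), and by median centring Xbp1 (0.17, adjusted p = 0.181), Eif2ak3 (0.10) and Atf4 (0.21) did not pass. Against wild-type replicate 3 alone Atf4 was 0.18 (adjusted p = 0.327) and Ppp1r15a -0.38 (adjusted p = 0.053).

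ER chaperones and folding enzymes had 4 of 19 detected genes higher, 7 lower and 8 not called. Over all features 16.9% were higher and 19.8% lower. Calr, the lectin chaperone calreticulin, read 8.87, 8.56, 8.60 and 8.62 in Adamts9+/-;bt/bt shelves against 6.85, 6.85 and 7.80 in wild-type shelves. The difference was 1.5 (SE 0.21, adjusted p = 0.000881), and 0.87 against wild-type replicate 3 alone. Creld1 (0.91, SE 0.10), the BiP co-chaperone Dnajc3 (0.62, SE 0.07) and Dnajb9 (0.28, SE 0.07) also rose. With median centring Dnajb9 was 0.02 (adjusted p = 0.873). The disulfide isomerase gene P4hb fell (difference -0.53, SE 0.07, adjusted p = 0.000625), at 12.07 to 12.23 in Adamts9+/-;bt/bt shelves against 12.56 to 12.79 in wild-type shelves. Pdia4 (-0.47, SE 0.08, adjusted p = 0.00205), Hyou1 (-0.57, SE 0.10), Serpinh1 (-0.45, SE 0.09) and Hsp90b1 (-0.45, SE 0.08) fell as well. Pdia4 (-0.33), Hyou1 (-0.35), Serpinh1 (-0.34) and Hsp90b1 (-0.31) no longer passed against wild-type replicate 3 alone. Smaller falls in Pdia5 (-0.30, SE 0.09) and Sil1 (-0.22, SE 0.07) were not firm, each lost in several fits without 1 array. Hspa5, which encodes BiP, differed by 0.07 (SE 0.09, adjusted p = 0.562). N-glycosylation had 3 of 8 higher (Stt3a 0.33, SE 0.05, Stt3b 0.18 and Rpn2 0.17). It had 1 lower (Ddost -0.30, SE 0.08, a call lost without wild-type replicate 1 at -0.24). ER-associated degradation had 3 of 11 higher (Edem2 0.64, Ube2g2 0.43 and Os9 0.37) and 2 lower, among them Faf2 (-0.62, SE 0.09). Os9 did not pass with median centring (0.06). The Ube2g2 call was lost without wild-type replicate 1, wild-type replicate 2 or mutant replicate 3. With median centring Stt3a was 0.05 (adjusted p = 0.617), Stt3b -0.07 and Rpn2 -0.05. The Rpn2 call was lost in every fit without 1 array except that without wild-type replicate 3, and the Stt3b call in every one except that without wild-type replicate 1. Against wild-type replicate 3 alone Ddost was -0.15 (adjusted p = 0.309).

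Other factors of ER insertion had 8 of 21 detected genes higher, 3 lower and 10 not called. Nomo1, part of a translocon-associated complex, fell (difference -1.16, SE 0.10, adjusted p = 0.000121), at 8.04, 8.33, 7.97 and 8.16 in Adamts9+/-;bt/bt shelves against 9.37, 9.39 and 9.09 in wild-type shelves. The ER membrane complex genes Emc9 (0.50, SE 0.09) and Emc4 (0.32, SE 0.07) rose. Emc4 did not pass with median centring (0.04, adjusted p = 0.704), and neither passed against wild-type replicate 3 alone (Emc4 0.28, adjusted p = 0.141; Emc9 0.44, adjusted p = 0.0705). COPII cargo receptors and exit-site genes had 4 of 14 higher and 7 lower. Lman2, the cargo receptor VIP36, fell (-0.78, SE 0.06, adjusted p = 8.16e-05), as did Klhl12 (-0.30, SE 0.06), which helps COPII vesicles enlarge for procollagen, and Tfg (-0.29, SE 0.06), which clusters exit-site vesicles. Cnih1, a receptor for growth factor precursors, rose by 0.48 (SE 0.07, adjusted p = 0.00082), and was 0.17 with median centring (adjusted p = 0.09). Tfg did not pass against wild-type replicate 3 alone (-0.28, adjusted p = 0.0852).

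ARF GTPases and COPI regulators had 2 of 9 higher and 4 lower. Arf5 read 9.47, 9.58, 9.76 and 9.86 in Adamts9+/-;bt/bt shelves against 7.67, 6.84 and 9.33 in wild-type shelves (difference 1.71, SE 0.47, adjusted p = 0.0204), again with wild-type replicate 3 nearest to the Adamts9+/-;bt/bt arrays. The Arf5 call was lost without wild-type replicate 1, wild-type replicate 2, mutant replicate 3 or mutant replicate 4 (adjusted p 0.0507 to 0.0732 by limma) and against wild-type replicate 3 alone (0.33, adjusted p = 0.173). Arf3 (-0.73, SE 0.14) and Arfgap3 (-0.47, SE 0.08) fell, and neither passed against wild-type replicate 3 alone (-0.38, adjusted p = 0.0819, and -0.28, adjusted p = 0.0764). Arcn1, the delta subunit of the COPI coat under a symbol outside the rule, differed by 0.04 (adjusted p = 0.707). Of 29 detected tethers, SNAREs and Rab genes of the ER and Golgi 6 were higher and 8 lower. Rab1b, the GTPase that TRAPP activates, rose by 1.17 (SE 0.09, adjusted p = 7.37e-05), at 7.67, 7.36, 7.71 and 7.53 in Adamts9+/-;bt/bt shelves against 6.35, 6.37 and 6.46 in wild-type shelves. The SNARE gene Ykt6 (-0.66, SE 0.08) and the COG tether genes Cog6 (-0.64, SE 0.07) and Cog4 (-0.50, SE 0.07) fell.

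**Figure D5:**
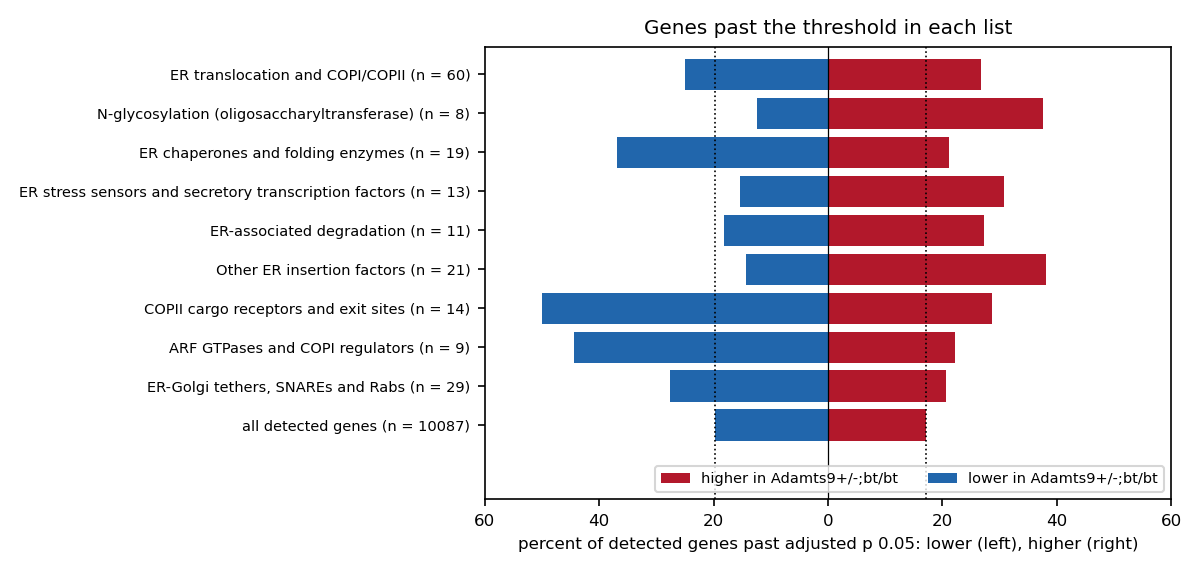
Percent of detected genes called lower (left) and higher (right) in Adamts9+/-;bt/bt shelves for the secretory genes, each of the 8 neighbouring lists and all 10087 detected genes, whose shares the dotted lines mark. COPII cargo receptors and exit-site genes have the longest bar to the left (7 of 14), and other ER insertion factors one of the longest to the right (8 of 21).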

How the data were processed

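Total RNA of 7 palatal shelf samples was labelled with the Illumina TotalPrep kit, per the labels' protocols. The deposited files hold linear intensity, not normalized between arrays, as their values show, and the authors' table holds log2 values whose ranks within each array equal those of the intensity. Scanner software and background step: not given in the sources used here. Distinct rows served as features (18116 of 25695 probe IDs), named from the platform annotation, which gives 1 gene symbol for 23976 probe IDs, several for 0 and none for 1719. Of several features of a gene, the brightest gave the gene's value.

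Intensity went through normexp (offset 50), log2 and quantile normalization and was tested with limma 3.58.1 in R 4.3.3, without covariates, over all 10869 detected features. Precision is limited by the 7 arrays. The series' design text describes separate embryos, so p-values measure the spread between embryos. Those with wild-type replicate 3 as the sole control are an exception. Their spread comes from the Adamts9+/-;bt/bt arrays only. Members called with a difference of at least 0.5, and the leading member of each other role, have their values in every array. Of each neighbouring list, the rule allowed up to 5 called genes by smallest p. Hspa5, Arcn1, Hyou1, Serpinh1, Hsp90b1, Dnajb9, Pdia5 and Sil1 fall outside that rule and were chosen after their values were seen. Members, lists and markers were chosen with earlier results of these data known. The fit was tested on simulated data. No genome was used, and promoters came from RefSeq (GRCm38.p6). Those of Kdelr2, Sec11c, Sec14l4, Sec61a1, Spcs3, Srp19, Srp68, Ssr2, Tmed11, Tmed2, Trappc1, Trappc4, Trappc8 and Trappc9 were not analysed here. Alternatives were the authors' log2 table, no background correction, median centring, other detection filters, a replicate block, array weights, every probe ID as a feature, wild-type replicate 3 as the sole control and leaving out each array.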

Additional observations from a re-analysis of the deposited data

Results flagged for a closer look

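Of the 64 detected member features, 1 had a value far from the others of its group, where chance flags about 1 in 20 groups. Srp68, a core subunit of the signal recognition particle, read 7.15 in mutant replicate 1, against 6.96, 6.95 and 6.98 in the other Adamts9+/-;bt/bt shelves. The gap took up 0.830 of that group's range, and the value lay within the wild-type values of 7.12, 7.22 and 7.26. The difference of Srp68 was -0.19 (SE 0.07) and was not called (limma adjusted p = 0.061). Groups of 3 arrays were not tested.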

How the results depend on the processing

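The member calls did not change with the authors' log2 table, without background correction or without a filter. Member features called were 17 higher and 15 lower, and became 6 and 24 with median centring, 10 and 8 with the replicate number as a block, 4 and 4 with wild-type replicate 3 as the sole control, and 26 and 22 with every probe ID as a feature. Leaving out 1 array gave 10 to 16 higher and 9 to 17 lower. All features gave 1840 higher and 2155 lower, and 758 and 3875 with median centring, 1265 and 1596 with the replicate block, 753 and 1002 with wild-type replicate 3 alone, 2884 and 3416 by probe ID, and 1288 to 2010 higher and 1634 to 2309 lower without 1 array. The neighbouring lists gave 34 and 34, then 9 and 56, 23 and 28, 13 and 13, and 55 and 54 in that order, and 20 to 33 higher and 25 to 34 lower without 1 array. Same-numbered arrays did not deviate together (correlations of -0.20, -0.16 and 0.06), so the numbers were not taken to pair embryos, and the block cost 15 member calls and gained 1. Median centring reversed Copg1's dimmer feature (-0.02), Spcs1 (-0.0767), Srp14 (-0.0137), Srp9 (-0.30, adjusted p = 0.0188), Ssr4 (-0.0713), Trappc1's dimmer feature (-0.23, adjusted p = 0.0412), Trappc2l (-0.0845) and Trappc4 (-0.0332). In these settings the cause was not tested. Of the 32 called features 17 were called in every fit without 1 array, a count that was not made over all features. Values near the limit of 6.10 are bounded by background.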
